A study of Mus musculus with 11 samples.

Results

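The nuclear genes of respiratory complex I and its assembly factors were examined in alphaTC1-6 cells, a glucagon-producing line derived from mouse islet alpha cells, after knockdown of either RNA methyltransferase subunit, Mettl3 or Mettl14. The genes were chosen by symbol (Nduf, then letters and a number), keeping rows that the annotation lists as protein-coding. This rule found 46 of the 53947 gene rows in the deposited table: 36 subunits of complex I, 8 assembly factors of the Ndufaf series, and Ndufa4 and Ndufa4l2, which carry the name but are not complex I subunits. Another 5 matching symbols were left out. Of these, Ndufb1-ps, annotated as a non-coding RNA, averaged 669 deposited counts per library. Ndufb4c, annotated as a processed pseudogene, averaged 445, and the others averaged 0 to 0.29. RefSeq lists Ndufb4c as protein-coding and treats the Ndufb1-ps locus as Ndufb1, a complex I subunit. By that annotation the 36 leave out at least 1 expressed subunit gene. The symbols were chosen without regard to the knockdown values, but after earlier results of these data were known.

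The libraries were 4 with Mettl3 knockdown, 4 with Mettl14 knockdown and 3 with a scramble control. In all 3 groups the cells were reverse transfected at a stated confluency of 70% and collected 72 h later. All libraries come from 1 cell line, and the sources used here do not give the knockdown reagent. Whether replicates were separate cultures is not in the labels, so the p-values speak of the spread between these libraries, which may be technical.

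Complex I is the large enzyme of the mitochondrial inner membrane that passes electrons from NADH to ubiquinone and pumps protons. Its matrix arm holds the NADH site and the iron-sulfur clusters, and its membrane arm holds the proton pumps. A set of conserved core subunits does the chemistry, part of them encoded in mitochondrial DNA, and the supernumerary subunits surround them. Assembly factors bind intermediates while modules are joined and are not part of the finished enzyme. In alpha cells, as in other islet cells, mitochondrial ATP production bears on hormone release. Mettl3, the catalytic subunit, and Mettl14 together place N6-methyladenosine on messenger RNA in the nucleus.

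Complex I genes were moderately higher in both knockdowns. Of the 36 subunits, 18 rose and 1 fell in Mettl3 knockdown against scramble, and 20 rose and 1 fell in Mettl14 knockdown against scramble. These are calls at an adjusted p under 0.05 in edgeR's quasi-likelihood test, with the Benjamini-Hochberg adjustment over all 14133 genes tested, of which 15.5% were called higher and 15.8% lower in Mettl3 knockdown, and 10.1% higher and 10.8% lower in Mettl14 knockdown. The median log2 fold change of the subunits was 0.19 in either knockdown, equal to 13.8% more RNA in Mettl3 knockdown and 14.2% more in Mettl14 knockdown. Over all genes tested the median was -0.00 and 0.00. Without scramble replicate 2, a library described below, the subunit median was 0.13 in either knockdown. Of the 8 assembly factors, 6 rose in Mettl3 knockdown with a median of 0.24, and 3 rose in Mettl14 knockdown with a median of 0.17. All 8 had positive values in both knockdowns. The subunit that fell in both was Ndufv3. Ndufa4l2, at 0 to 0.200 CPM (counts scaled to a common library total with trimmed-mean scaling), was the only member too low to be tested.

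**Figure D1:**
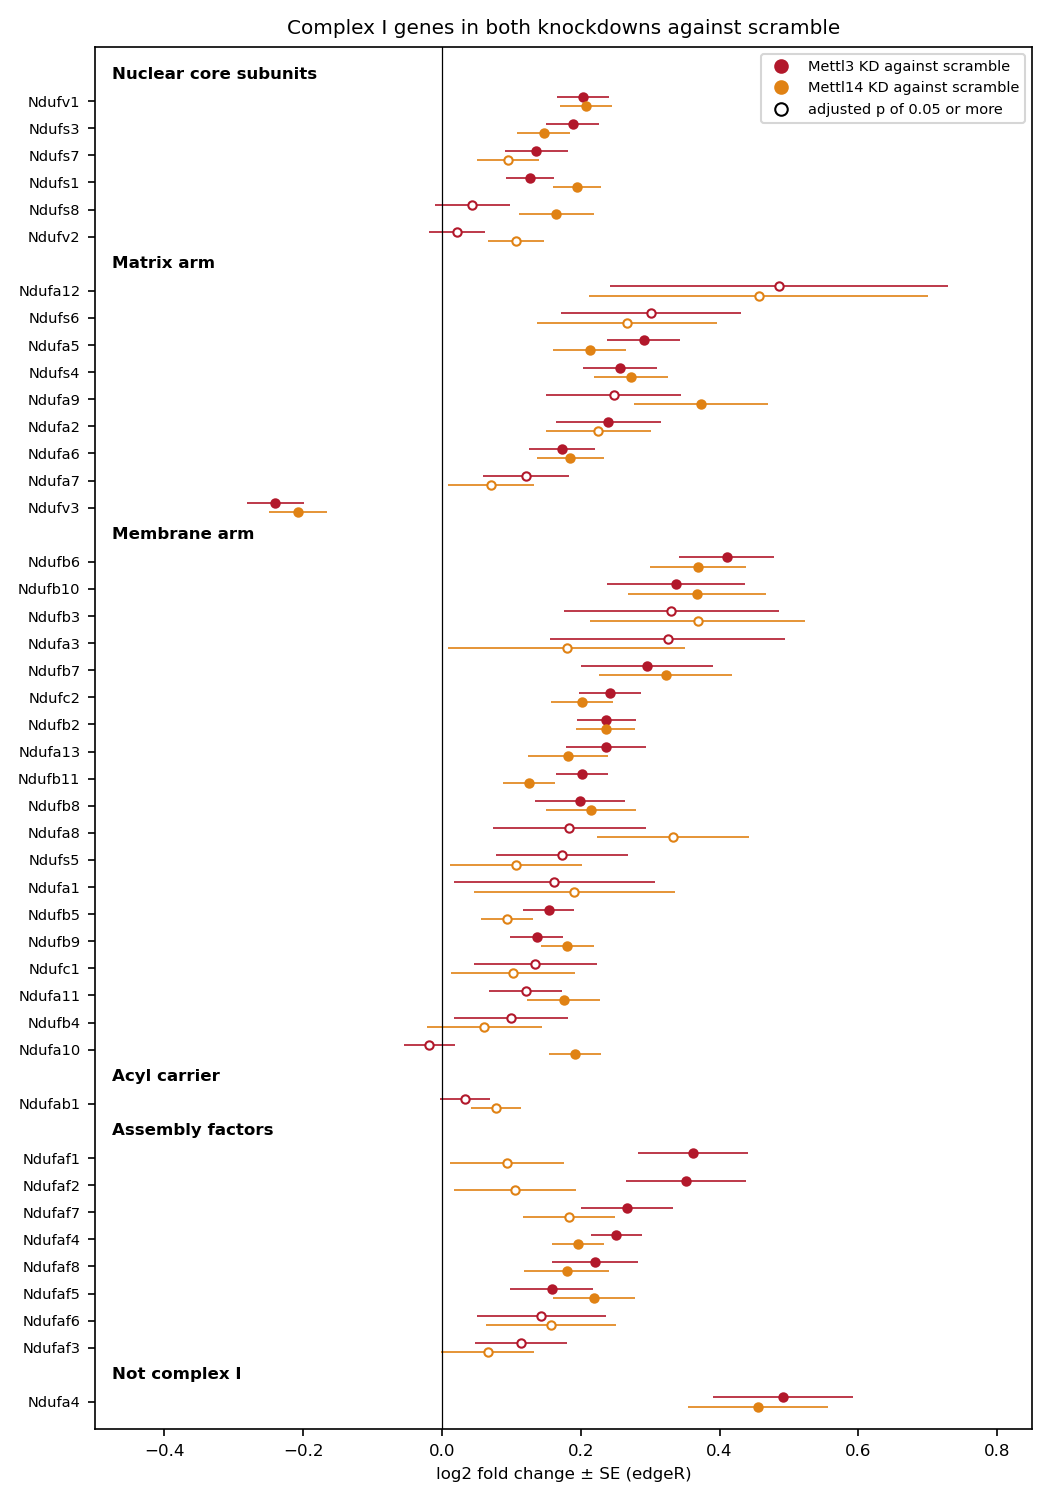
Log2 fold change with its SE for tested members, grouped by role, in Mettl3 knockdown against scramble (red) and Mettl14 knockdown against scramble (orange). Filled points passed the test, and Ndufv3 is the only filled point left of 0.

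Promoter windows are shown for 5 members that differ in behaviour or motif: Ndufa5, Ndufs3 and Ndufs4, which rose in both knockdowns, the assembly factor Ndufaf4, which did too, and Ndufv3, which fell. NRF1, ETS factors such as GABP, and YY1 are known regulators of nuclear respiratory genes. The sequences are RefSeq windows of build GRCm38.p6, running 5′ to 3′ on the gene's strand from 250 bases before to 50 bases after the start. Capitals mark matches, on either strand, to GCGCA, any base and GCGC (NRF1), to CCGGAAG (ETS) or to AAGATGGCG (YY1). Ndufa5 is at chr6:24527641-24527940 (minus strand), Ndufs3 at chr2:90904672-90904971 (minus), Ndufs4 at chr13:114388045-114388344 (minus), Ndufaf4 at chr4:24897833-24898132 (plus) and Ndufv3 at chr17:31519865-31520164 (plus).
Ndufa5: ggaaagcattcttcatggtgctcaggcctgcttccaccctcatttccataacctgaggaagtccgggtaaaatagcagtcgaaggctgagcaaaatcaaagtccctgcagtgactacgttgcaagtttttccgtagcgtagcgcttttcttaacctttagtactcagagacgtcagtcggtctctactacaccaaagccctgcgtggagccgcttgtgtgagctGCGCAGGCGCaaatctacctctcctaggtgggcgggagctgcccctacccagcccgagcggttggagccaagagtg
Ndufs3: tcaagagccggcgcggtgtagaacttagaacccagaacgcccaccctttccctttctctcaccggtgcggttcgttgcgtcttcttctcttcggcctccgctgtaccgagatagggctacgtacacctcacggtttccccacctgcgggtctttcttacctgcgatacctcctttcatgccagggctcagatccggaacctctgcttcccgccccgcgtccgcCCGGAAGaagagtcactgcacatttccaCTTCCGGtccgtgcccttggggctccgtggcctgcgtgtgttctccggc
Ndufs4: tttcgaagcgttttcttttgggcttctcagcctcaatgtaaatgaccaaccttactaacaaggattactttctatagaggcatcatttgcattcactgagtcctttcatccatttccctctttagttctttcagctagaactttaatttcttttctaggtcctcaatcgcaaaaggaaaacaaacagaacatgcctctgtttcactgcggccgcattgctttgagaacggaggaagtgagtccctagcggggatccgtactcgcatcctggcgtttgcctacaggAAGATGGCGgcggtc
Ndufaf4: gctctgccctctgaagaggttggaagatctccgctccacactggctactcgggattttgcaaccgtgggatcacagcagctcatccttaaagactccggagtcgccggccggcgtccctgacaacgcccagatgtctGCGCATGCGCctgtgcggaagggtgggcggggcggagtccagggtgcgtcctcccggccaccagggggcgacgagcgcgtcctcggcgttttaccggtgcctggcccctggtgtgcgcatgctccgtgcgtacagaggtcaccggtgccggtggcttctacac
Ndufv3: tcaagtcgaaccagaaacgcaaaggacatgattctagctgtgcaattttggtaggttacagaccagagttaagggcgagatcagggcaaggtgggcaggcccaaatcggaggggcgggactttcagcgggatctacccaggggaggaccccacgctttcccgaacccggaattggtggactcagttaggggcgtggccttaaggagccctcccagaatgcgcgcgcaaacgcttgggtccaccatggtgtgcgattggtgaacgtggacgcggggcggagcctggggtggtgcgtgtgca
Ndufa5 and Ndufaf4 hold the NRF1 motif, and Ndufs3 holds the ETS motif on both strands. Ndufs4 holds the YY1 motif just after its start, and Ndufv3 holds none of the 3. The windows of Ndufv1, Ndufb2, Ndufb11 and Ndufc2, which rose in both knockdowns, hold none of them either. Across the 40 members with a window, 34 windows belong to 32 subunits. Of these 34, 8 hold the NRF1 motif (23.5%, against 9.87% of windows of all genes tested), 5 the YY1 motif (14.7% against 2.94%) and 4 the ETS motif (11.8% against 17.3%). Both windows of Ndufa5 overlap and hold the same NRF1 match. Any of the 3 motifs was in 47.1% of subunit windows and 27.1% of windows of all genes tested. These matches are letters in a window and do not show binding. Members with no window include Ndufa2, Ndufa4l2, Ndufb9, Ndufs1 and Ndufaf6.

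Scramble replicate 2 stands apart from the other libraries, and all comparisons with scramble, also those above, rest partly on it. It had the fewest counts, 19576632, against 20944085 to 22406527 in the other 10 libraries. It also held RNA that an alpha cell line should lack. The 4 lung markers summed to 89.9 CPM there, against 1.08 to 3.34 in the other libraries, and none of the 4 was at 0 in any library. The 4 immune and blood markers summed to 16.5 there against 1.25 to 3.30 elsewhere. Of these, Ptprc, Hba-a1 and Hbb-bs were highest there, but Cd68 was at 1.60 CPM, against 1.54 and 1.70 in scramble replicates 1 and 3. The 4 mesenchymal and endothelial markers summed to 17.1 CPM there against 1.03 to 3.90 elsewhere. The alpha cell markers, led by Gcg, summed to 34683 CPM there and to 38375 to 45330 elsewhere. The 6 beta cell markers summed to 72.8 CPM there and to 49.4 to 56.7 elsewhere, nearly all of it from Nkx6-1, at 72.0 CPM there and 48.9 to 56.2 elsewhere, while Pdx1 was at 0 in all 11 libraries. The 3 delta and PP cell markers summed to 0.0450 to 0.288 CPM, with Ppy at 0 throughout. Mettl3 was lower in the Mettl3 knockdown libraries, at 5.34 ± 0.449 CPM against 14.9 ± 1.02 in scramble (SD, n = 4 and n = 3). Mettl14 was lower in the Mettl14 knockdown libraries, at 14.7 ± 0.720 CPM against 25.2 ± 1.70 in scramble.

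Because the libraries are bulk RNA, fewer cells with a transcript and less of it per cell cannot be told apart. Summed over the 36 subunits, the libraries held 4556, 4495, 4412 and 4530 CPM with Mettl3 knockdown, 4657, 4672, 4510 and 4591 CPM with Mettl14 knockdown, and 4238, 3595 and 4151 CPM with scramble. All 8 knockdown libraries lay above all 3 scramble libraries, and scramble replicate 2 lay well below its 2 partners. Without scramble replicate 2, the ratio of group means was 1.07 for Mettl3 knockdown and 1.10 for Mettl14 knockdown; with it, the ratios were 1.13 and 1.15. The assembly factors together reached 208, 214, 207 and 209 CPM with Mettl3 knockdown, 200, 198, 205 and 198 CPM with Mettl14 knockdown, and 178, 173 and 185 CPM with scramble. Here too the knockdown and scramble libraries did not overlap.

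**Figure D2:**
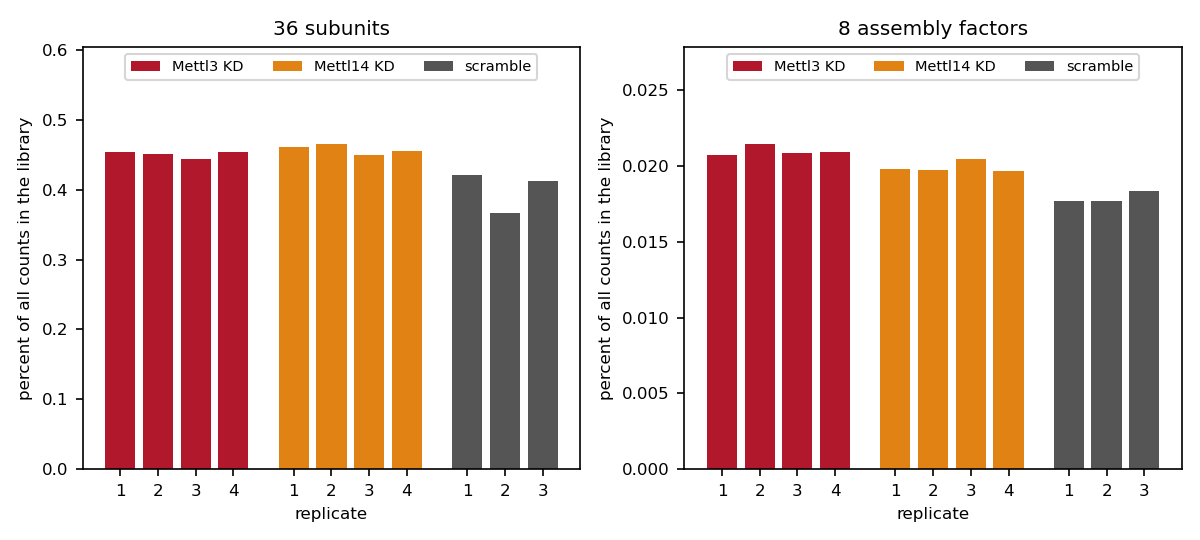
Percent of all deposited counts in each library that fell on the 36 subunits (left) and on the 8 assembly factors (right), 1 bar per library. Subunits took 0.443% to 0.454% with Mettl3 knockdown, 0.449% to 0.465% with Mettl14 knockdown and 0.367% to 0.420% with scramble, lowest in replicate 2.

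Of the 7 nuclear core subunits, which carry the catalytic chemistry, 4 rose in Mettl3 knockdown (Ndufv1, Ndufs1, Ndufs3 and Ndufs7) and 5 in Mettl14 knockdown (among them Ndufv1, Ndufs1, Ndufs3 and Ndufs8). Their median log2 fold changes were 0.13 and 0.16. Ndufv1, which binds NADH and the flavin, was at 205, 194, 191 and 200 CPM with Mettl3 knockdown, at 198, 204, 197 and 193 CPM with Mettl14 knockdown, and at 172, 161 and 180 CPM with scramble. All 8 knockdown libraries were above all 3 scramble libraries, and both knockdowns covered nearly the same range. Its log2 fold change was 0.20 ± 0.04 in Mettl3 knockdown (SE, edgeR adjusted p = 3.49e-04) and 0.21 ± 0.04 in Mettl14 knockdown (edgeR adjusted p = 5.19e-04), and the call held without any single library.

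Ndufs1, the largest core subunit and the holder of several iron-sulfur clusters, was at 297, 306, 293 and 300 CPM with Mettl3 knockdown, at 320, 314, 312 and 309 CPM with Mettl14 knockdown, and at 278, 258 and 286 CPM with scramble. Every knockdown library was above every scramble library, and the log2 fold changes were 0.13 ± 0.03 and 0.19 ± 0.03 (edgeR adjusted p = 0.00801 and 4.07e-04). Ndufs3, a subunit of the arm's ubiquinone-binding part, was at 124, 118, 115 and 115 CPM with Mettl3 knockdown, at 114, 118, 113 and 113 CPM with Mettl14 knockdown, and at 104, 97.9 and 108 CPM with scramble. It rose by 0.19 ± 0.04 and 0.15 ± 0.04 on the log2 scale (edgeR adjusted p = 7.34e-04 and 0.00878), again with every knockdown library above scramble. Ndufv2, which holds a cluster beside Ndufv1, was not called in either knockdown, at 0.02 ± 0.04 in Mettl3 knockdown and 0.11 ± 0.04 in Mettl14 knockdown.

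Among the 9 supernumerary subunits of the matrix arm, 4 rose and 1 fell in either knockdown, with median log2 fold changes of 0.25 in Mettl3 knockdown and 0.23 in Mettl14 knockdown. These medians became 0.13 and 0.16 without scramble replicate 2. Ndufs4, whose window holds the YY1 motif, joins the arm late, and its loss in mice gives a fatal encephalopathy; it was at 78.2, 74.0, 70.8 and 75.1 CPM with Mettl3 knockdown, at 76.4, 74.7, 71.7 and 78.5 CPM with Mettl14 knockdown, and at 66.7, 55.5 and 64.7 CPM with scramble. It rose by 0.26 ± 0.05 and 0.27 ± 0.05 on the log2 scale (edgeR adjusted p = 0.00127 and 0.00136). Ndufa5, an early partner of Ndufs3, was at 89.8, 88.7, 84.8 and 88.6 CPM with Mettl3 knockdown, at 82.1, 90.8, 78.9 and 81.7 CPM with Mettl14 knockdown, and at 78.7, 70.2 and 66.8 CPM with scramble. The Mettl14 knockdown group cleared scramble only narrowly, by 78.9 against 78.7 CPM. The log2 fold changes of Ndufa5 were 0.29 ± 0.05 (edgeR adjusted p = 4.14e-04) and 0.21 ± 0.05 (edgeR adjusted p = 0.00812), and without scramble replicate 2 the second was 0.20 with an adjusted p of 0.0533.

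Ndufv3, a small supernumerary subunit of the NADH-oxidising end, ran the other way. It was at 83.3, 77.4, 79.5 and 81.1 CPM with Mettl3 knockdown, at 84.2, 83.8, 79.6 and 81.2 CPM with Mettl14 knockdown, and at 100, 88.3 and 95.7 CPM with scramble. All 8 knockdown libraries were below the lowest scramble library, which was replicate 2. The log2 fold changes were -0.24 ± 0.04 (edgeR adjusted p = 1.57e-04) and -0.21 ± 0.04 (edgeR adjusted p = 0.00115). Without scramble replicate 2 they were -0.29 and -0.26, and the call held without any other single library. Ndufv3 is known to give a long and a short protein by alternative splicing, and the gene counts add these forms together.

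**Figure D3:**
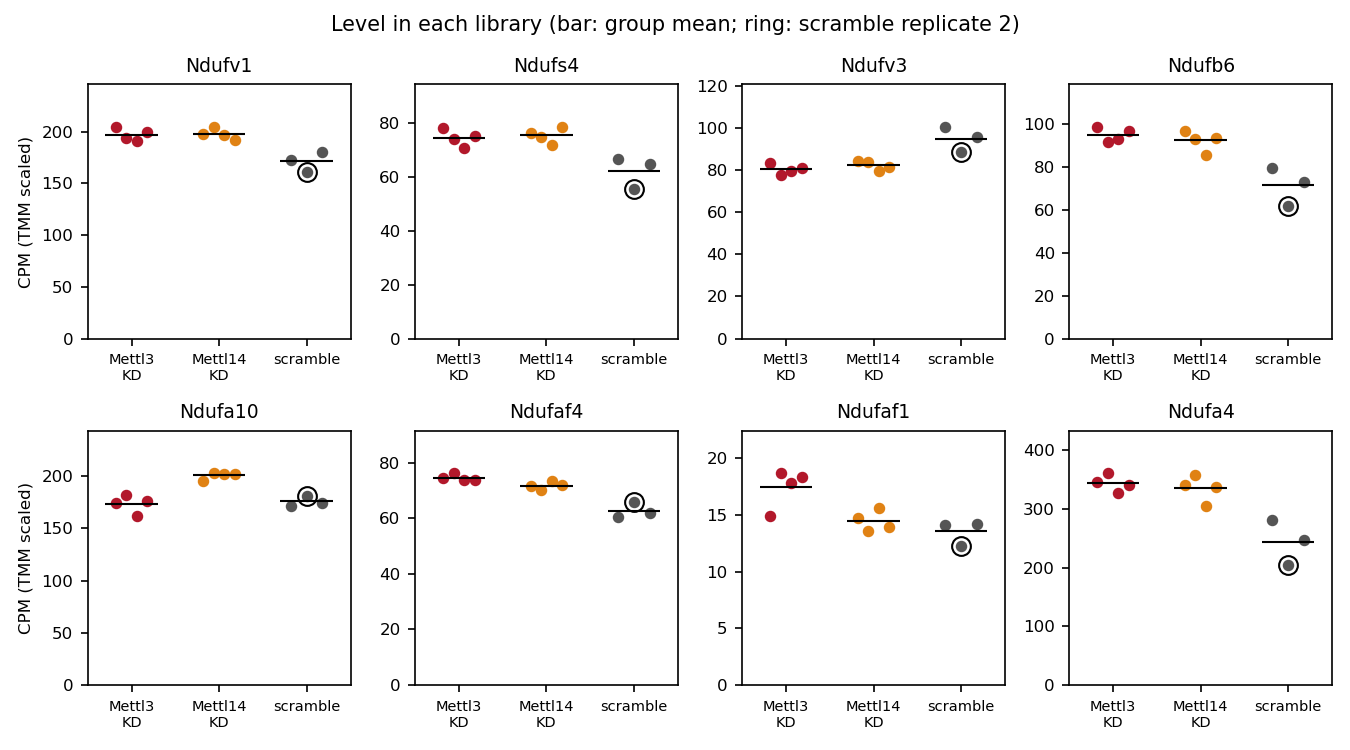
CPM of 8 members in each library, with a bar at the group mean and a ring around scramble replicate 2; axes start at 0. Ndufv1, Ndufs4, Ndufb6, Ndufaf4 and Ndufa4 are higher in all knockdown libraries, and Ndufv3 is lower in all of them. Ndufa10 is higher with Mettl14 knockdown. For Ndufaf1 the Mettl14 knockdown libraries overlap both other groups, and the Mettl3 knockdown libraries lie above scramble.

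The 19 supernumerary subunits of the membrane arm held 10 that rose in Mettl3 knockdown and 11 that rose in Mettl14 knockdown, with medians of 0.20 and 0.19 that became 0.14 and 0.13 without scramble replicate 2. Ndufb6 had the largest called log2 fold change of any subunit in Mettl3 knockdown. It was at 98.6, 91.7, 93.1 and 96.5 CPM with Mettl3 knockdown, at 96.9, 93.0, 85.6 and 93.6 CPM with Mettl14 knockdown, and at 79.2, 61.8 and 73.1 CPM with scramble. The knockdown libraries were clearly above scramble, with log2 fold changes of 0.41 ± 0.07 and 0.37 ± 0.07 (edgeR adjusted p = 6.80e-04 and 0.00254) that became 0.32 and 0.28 without scramble replicate 2.

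Ndufb2, another membrane arm subunit, was at 111, 100, 102 and 103 CPM with Mettl3 knockdown, at 100, 106, 100 and 109 CPM with Mettl14 knockdown, and at 90.9, 84.1 and 89.6 CPM with scramble. It rose by 0.24 ± 0.04 in both (edgeR adjusted p = 2.21e-04 and 4.28e-04), without overlap with scramble. Ndufb11, whose loss in humans causes an X-linked disorder, was at 119, 110, 109 and 112 CPM with Mettl3 knockdown, at 109, 110, 103 and 104 CPM with Mettl14 knockdown, and at 99.6, 98.3 and 95.3 CPM with scramble. It rose by 0.20 ± 0.04 in Mettl3 knockdown (edgeR adjusted p = 3.22e-04) and by 0.13 ± 0.04 in Mettl14 knockdown (edgeR adjusted p = 0.0208), the second call being lost without scramble replicate 3 or Mettl14 knockdown replicate 2. Ndufa13, also known as GRIM-19, Ndufc2 and Ndufb9, which belongs to the LYR family and binds the acyl carrier protein, also rose in both knockdowns, by 0.14 to 0.24. Without scramble replicate 2, Ndufa13 was at 0.15 in Mettl3 knockdown and at 0.10 in Mettl14 knockdown, where its call was lost (edgeR adjusted p = 0.0734). Ndufab1, the mitochondrial acyl carrier protein that is both a complex I subunit and a cofactor of fatty acid synthesis, was not called. It was at 139, 136, 137 and 141 CPM with Mettl3 knockdown, at 140, 139, 148 and 143 CPM with Mettl14 knockdown, and at 137, 128 and 140 CPM with scramble, with log2 differences of 0.03 ± 0.04 and 0.08 ± 0.04.

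Both comparisons use the same scramble libraries. Leaving out each of the 11 libraries in turn, 14 of the 19 subunits called in Mettl3 knockdown and 12 of the 21 called in Mettl14 knockdown kept their call every time. Those that lost it at least once in Mettl3 knockdown were Ndufa2, Ndufb7, Ndufb8, Ndufb10 and Ndufs7. In Mettl14 knockdown they were Ndufa5, Ndufa9, Ndufa11, Ndufa13, Ndufb7, Ndufb8, Ndufb10, Ndufb11 and Ndufs8. Without Mettl14 knockdown replicate 1 or 2, 13 and 12 subunits were called higher in Mettl14 knockdown. By values alone, 21 subunits were higher in every library of either knockdown than in every scramble library, where 17.5% of all genes tested were so in Mettl3 knockdown and 14.4% in Mettl14 knockdown.

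The assembly factors were less abundant than the subunits per length of transcript. Their median level was 17.2 CPM per kb with Mettl3 knockdown, 16.5 with Mettl14 knockdown and 15.2 with scramble, against subunit medians of 123, 120 and 107 CPM per kb. The highest subunit per kb in all 3 groups was Ndufb8, and the lowest was Ndufb4, at 11.3, 10.99 and 10.6 CPM per kb. Reads of Ndufb4 may be shared out to Ndufb4c, which averaged 445 deposited counts per library against 234 for Ndufb4, so the level of Ndufb4 is uncertain.

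Ndufaf4, which with Ndufaf3 attends the early ubiquinone-binding module, had the smallest adjusted p of the assembly factors. It was at 74.6, 76.3, 73.7 and 74.0 CPM with Mettl3 knockdown, at 71.6, 70.1, 73.6 and 72.0 CPM with Mettl14 knockdown, and at 60.5, 65.8 and 61.9 CPM with scramble. Scramble replicate 2 was the highest of its group here, and the knockdown libraries were still all above it. The log2 fold changes were 0.25 ± 0.04 (edgeR adjusted p = 2.98e-05) and 0.20 ± 0.04 (edgeR adjusted p = 7.44e-04), and they were 0.29 and 0.23 without scramble replicate 2. Ndufaf5, which hydroxylates an arginine of Ndufs7, was at 22.1, 23.9, 23.5 and 23.7 CPM with Mettl3 knockdown, at 24.4, 23.5, 25.0 and 24.3 CPM with Mettl14 knockdown, and at 21.8, 18.6 and 22.1 CPM with scramble. Its calls were marginal: 0.16 ± 0.06 (edgeR adjusted p = 0.0491) and 0.22 ± 0.06 (edgeR adjusted p = 0.0119), becoming 0.09 and 0.15 and losing both calls without scramble replicate 2. Ndufaf8, a partner of Ndufaf5, rose by 0.22 ± 0.06 and 0.18 ± 0.06, and each of these calls was lost without some single library. Ndufaf2, which occupies the place later taken by its relative Ndufa12, rose by 0.35 ± 0.09 in Mettl3 knockdown, and Ndufaf7, an arginine methyltransferase, rose there by 0.27 ± 0.07, or by 0.17 without scramble replicate 2. Ndufaf3 and Ndufaf6 were not called in either knockdown.

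The knockdowns were then compared with each other, with 3.66% of all genes called higher and 4.44% lower in Mettl3 knockdown than in Mettl14 knockdown. Ndufa10 was the 1 subunit of 36 that was called. Ndufa10, a membrane arm subunit on the matrix side with a nucleoside kinase fold, was at 174, 182, 162 and 176 CPM with Mettl3 knockdown and at 196, 203, 202 and 203 CPM with Mettl14 knockdown. These groups did not overlap, and scramble, at 172, 181 and 175 CPM, lay within the Mettl3 knockdown range. The log2 difference was -0.21 ± 0.03 between the knockdowns (edgeR adjusted p = 4.77e-04), a call kept without any single library. Against scramble it was -0.02 ± 0.04 in Mettl3 knockdown (edgeR adjusted p = 0.750) and 0.19 ± 0.04 in Mettl14 knockdown (edgeR adjusted p = 8.25e-04). The other 35 subunits differed between the knockdowns by -0.15 to 0.15 on the log2 scale and were not called, which does not show that they are alike.

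With the scramble libraries left out of the fit, 6 subunits were called lower in Mettl3 knockdown than in Mettl14 knockdown, where 8.21% of all genes were. These included Ndufa10, Ndufa8, Ndufa9, Ndufv2 and Ndufs1, at log2 differences of -0.21 to -0.07. Among assembly factors, Ndufaf1 was called higher with Mettl3 knockdown. Ndufaf1, a member of the complex that builds the membrane arm, was at 14.9, 18.7, 17.8 and 18.4 CPM with Mettl3 knockdown, at 14.8, 13.6, 15.6 and 13.9 CPM with Mettl14 knockdown, and at 14.1, 12.3 and 14.2 CPM with scramble. Mettl3 knockdown replicate 1 lay inside the Mettl14 knockdown range. The log2 difference was 0.27 ± 0.07 between the knockdowns (edgeR adjusted p = 0.0251), and this call was lost without Mettl3 knockdown replicate 2, 3 or 4, or Mettl14 knockdown replicate 1, 2 or 4, and with DESeq2. Against scramble, Ndufaf1 rose by 0.36 ± 0.08 in Mettl3 knockdown (edgeR adjusted p = 0.00155).

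Leaving out scramble replicate 2 made the differences smaller but did not reduce the number of subunits called. The subunit median was then 0.13 in either knockdown, with 21 higher and 1 lower in both. Of all genes, 15.3% were then called higher and 15.1% lower in Mettl3 knockdown, and 9.34% higher and 10.1% lower in Mettl14 knockdown. Of the assembly factors, 5 were then higher in Mettl3 knockdown, at a median of 0.22, and 2 in Mettl14 knockdown, at a median of 0.13. Ndufb3 had log2 fold changes of 0.33 ± 0.15 and 0.37 ± 0.15 with all libraries and was not called. It was at 110, 119, 120 and 118 CPM with Mettl3 knockdown, at 121, 120, 116 and 122 CPM with Mettl14 knockdown, and at 107, 63.9 and 106 CPM with scramble. Without the low library it rose by 0.13 and 0.17 (edgeR adjusted p = 0.00584 and 7.68e-04). Ndufa1, at 0.16 ± 0.14 and 0.19 ± 0.14 with all libraries, was at -0.02 and 0.01 without it.

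**Figure D4:**
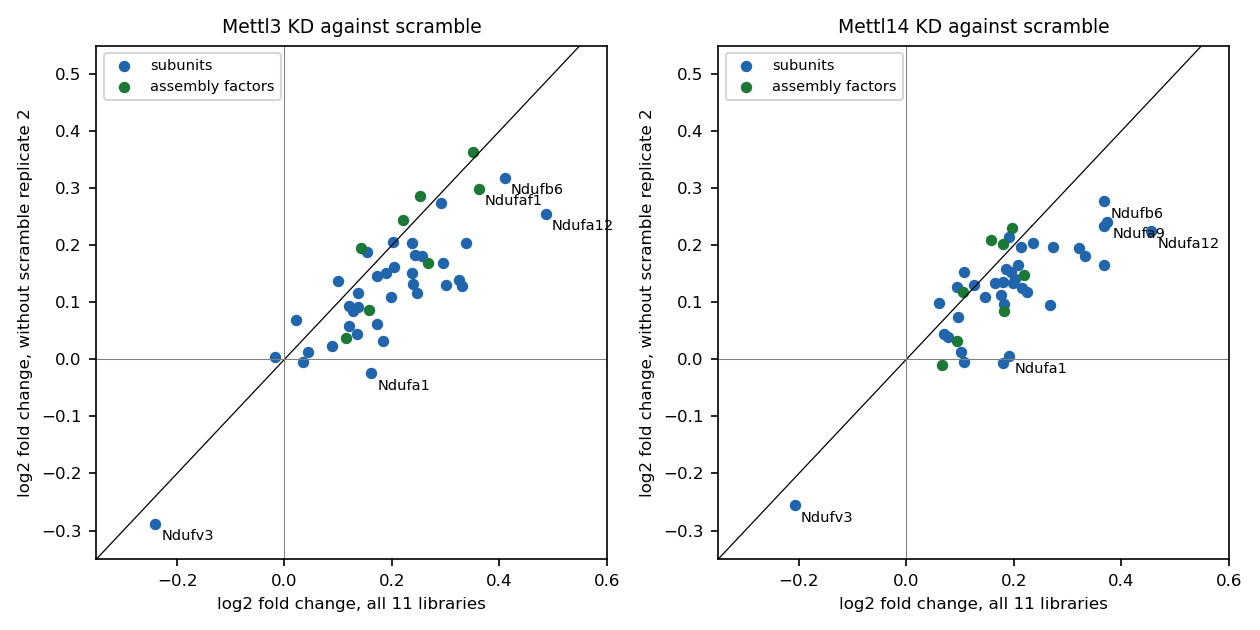
Log2 fold change of each subunit (blue) and assembly factor (green) with all 11 libraries (x axis) against the value without scramble replicate 2 (y axis), in Mettl3 knockdown (left) and Mettl14 knockdown (right); the diagonal marks equal values. Most subunits lie below the diagonal but above 0, and Ndufv3 lies below 0 on both axes.

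The deviation of scramble replicate 2 was larger in subunits than in other genes of like transcript length. It was the lowest of all 11 libraries for 28 of 36 subunits, 77.8%, against 22.5% of all genes tested, and for 4 of 8 assembly factors. The 77.8% also holds the lower level of subunits in scramble as a group. Among the scramble libraries alone, replicate 2 was the lowest for 30 of 36 subunits, a count not made over all genes. Subunit transcripts are short, with a median of 812 bases against 2716 for all tested genes, and 23 of 36 are under 1000 bases against 1507 of all 13731 tested genes with a transcript. In transcripts under 600 bases, scramble replicate 2 differed from the mean of replicates 1 and 3 by a median of -0.32 in subunits and -0.13 in all genes on the log2(CPM + 1) scale. From 600 to under 1000 bases the medians were -0.19 and -0.06, and from 1000 to under 2000 bases they were -0.15 and -0.02. The lowest deviations were in Ndufa12 (-0.84), Ndufb3 (-0.73) and Ndufa1 (-0.65), and the highest was in Ndufv2 (0.13). When each library was corrected for its trend over transcript length, 14 subunits rose in Mettl3 knockdown, where 15.7% of all genes did, and 19 in Mettl14 knockdown, where 10.4% did, with medians of 0.13 and 0.16. With this correction and without scramble replicate 2, the medians were 0.09 in Mettl3 knockdown and 0.12 in Mettl14 knockdown, with 16 and 21 subunits higher where 15.5% and 9.91% of all genes were. The part of lung or other foreign RNA in these values was not tested.

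**Figure D5:**
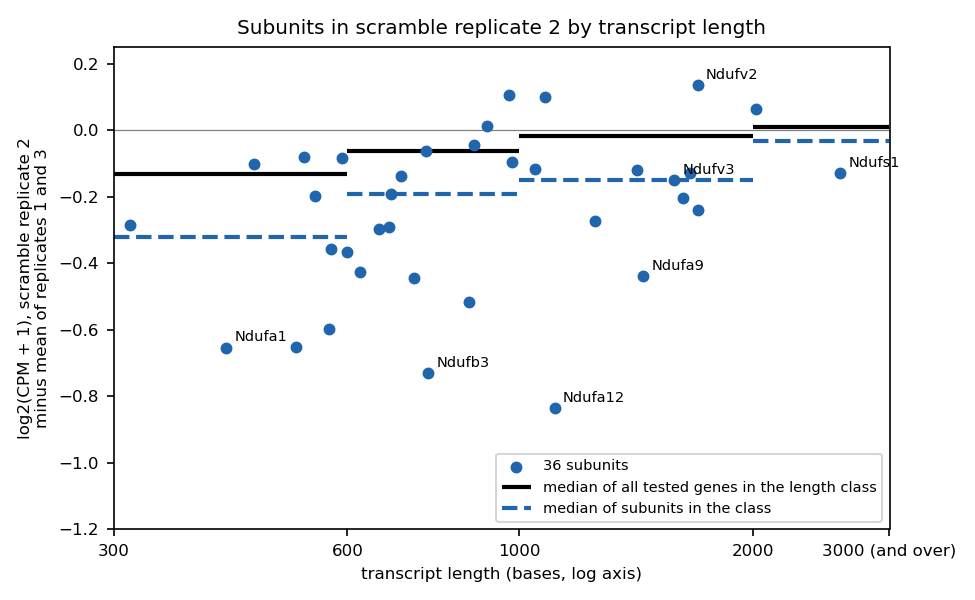
Log2(CPM + 1) in scramble replicate 2 minus the mean of scramble replicates 1 and 3 for each of 36 subunits, against transcript length on a log axis; dashed blue lines are subunit medians in a length class and black lines the medians of all tested genes. Subunit medians lie below those of all genes in every class, the class of 2000 bases and over holding 2 subunits.

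Genes encoding regulators of respiratory genes were also read from the same fit. Of 9 regulators of nuclear respiratory genes, 3 rose and 2 fell in Mettl3 knockdown, where 15.5% of all genes tested rose and 15.8% fell. In Mettl14 knockdown 3 rose and 1 fell, where 10.1% and 10.8% of all genes did. Yy1 fell by 0.15 on the log2 scale in Mettl3 knockdown and by 0.13 in Mettl14 knockdown (edgeR adjusted p = 9.25e-04 and 0.00523). Esrra, which encodes an orphan nuclear receptor of mitochondrial genes, rose by 0.24 and 0.27 (edgeR adjusted p = 0.00930 and 0.00766), or by 0.15 and 0.17 without scramble replicate 2. The motif of its receptor family, searched as TCAAGGTCA, was in 0 of the 34 subunit windows and 0 of the 7 assembly factor windows. It was in 0.282% of windows of all genes tested. Ppargc1a, the coactivator PGC-1alpha, named after its values were seen, was at -0.11 in Mettl3 knockdown and 0.13 in Mettl14 knockdown (edgeR adjusted p = 0.0291 and 0.0209). The first call was lost without any of 6 single libraries, the smallest difference being -0.07, with the length trend (edgeR adjusted p = 0.0874), with the replicate block and with only the groups compared, and the second without scramble replicate 3 or Mettl14 knockdown replicate 2. It was the 1 regulator called between the knockdowns, at 137, 137, 148 and 140 CPM with Mettl3 knockdown and 166, 171, 163 and 164 CPM with Mettl14 knockdown, a log2 difference of -0.24 ± 0.03 (edgeR adjusted p = 1.80e-04). Nrf1 and Gabpa, whose products bind the NRF1 and ETS motifs, were not called in either knockdown with all libraries. Nrf1 was, without scramble replicate 2, called lower in Mettl3 knockdown, at -0.14 (edgeR adjusted p = 0.0172), and so it was with the length trend, at -0.12 (edgeR adjusted p = 0.0482).

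Of 12 assembly factors without an Nduf symbol that were tested, 4 rose in either knockdown, with a median of 0.10. Over all genes tested, 15.5% rose in Mettl3 knockdown and 10.1% in Mettl14 knockdown. Acad9, a partner of Ndufaf1, rose by 0.25 in Mettl3 knockdown and 0.18 in Mettl14 knockdown (edgeR adjusted p = 1.52e-04 and 0.00535). Foxred1 rose by 0.22 and 0.18 (edgeR adjusted p = 0.00179 and 0.0132), and Aifm1, which aids import of subunits, by 0.17 and 0.22 (edgeR adjusted p = 0.0293 and 0.0131). Without scramble replicate 2, Aifm1 was at 0.09 in Mettl3 knockdown, where the call was lost (edgeR adjusted p = 0.0572), and at 0.14 in Mettl14 knockdown; the Mettl3 knockdown call was also lost without any of 4 other single libraries. Of the 7 mitochondrially encoded subunits, only mt-Nd4l was called, at 0.42 and 0.57 (edgeR adjusted p = 0.0365 and 0.0153). Without scramble replicate 2 that call was lost in both knockdowns and mt-Nd1 was called instead, at 0.20 and 0.17. The Mettl3 knockdown call of mt-Nd4l was lost without any of 7 single libraries, scramble replicate 2 included. It was also lost with limma-voom, with no filter on low counts and with the replicate block. The Mettl14 knockdown call of mt-Nd4l was also lost with the replicate block and with only the groups compared. The gene mt-Nd4l overlaps mt-Nd4 on the mitochondrial genome. The libraries were made from messenger RNA, and their mitochondrial transcripts depend on that selection.

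The nuclear subunits of complexes II to V, which finish electron transfer and make ATP, were counted beside complex I. Of 43 tested, 24 rose and 1 fell in Mettl3 knockdown and 23 rose in Mettl14 knockdown, with a median of 0.20 in either. The shares of all genes tested that rose were 15.5% and 10.1%. The medians of complexes II to V were 0.13 in Mettl3 knockdown and 0.14 in Mettl14 knockdown without scramble replicate 2. Sdhb, the iron-sulfur subunit of complex II, rose by 0.30 in both (edgeR adjusted p = 9.37e-07 and 1.21e-06). Ndufa4, now assigned to complex IV despite its name, was at 346, 361, 327 and 340 CPM with Mettl3 knockdown, at 341, 357, 305 and 337 CPM with Mettl14 knockdown, and at 282, 204 and 247 CPM with scramble. The knockdown libraries did not overlap with scramble, although the scramble libraries were widely spread. It rose by 0.49 ± 0.10 and 0.45 ± 0.10 (edgeR adjusted p = 0.00583 and 0.0132), and by 0.38 and 0.34 without scramble replicate 2.

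The annotated transcripts were also searched for letters that Mettl3 and Mettl14 are known to prefer. GGACT, a common form of the methylated motif, was absent from the annotated transcript of 19 of 36 subunits, 52.8%, and from 4 of 8 assembly factors, against 11.2% of all genes tested. The gap was smaller in short transcripts: under 1000 bases it was absent from 13 of 23 subunits, 56.5%, and from 44.7% of all genes. That difference was not tested, and longer transcripts were not compared in this way. Per kb of transcript, GGACT was less frequent in subunits, at 0.704 against 1.09 in all genes tested. It was also less frequent per kb in subunits under 1000 bases. How much of the gap goes with transcript length was not tested. Ndufv3 and Ndufa10 were among the subunits with no GGACT, and so were Ndufs3, Ndufs4, Ndufa5 and Ndufb6, which rose in both knockdowns. Ndufv1 and Ndufb2, which also rose in both, hold it. Methylation itself was not measured here.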

How the data were processed

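Messenger RNA was sequenced from 11 libraries of alphaTC1-6 cells. The authors deposited 1 table of estimated counts (expected counts) per gene; kallisto is named in the submitters' processing notes, and the sources used here do not give its version, the annotation or the genome build. Of the deposited values, 11.6% were not whole; they were rounded before testing. Totals ran from 19576632 to 22406527 counts per library, and the common biological coefficient of variation was 4.38%. Symbols, biotypes and transcript lengths came from GENCODE M21, taking a middle-length principal transcript.

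Genes passing filterByExpr at a minimum count of 10 were tested with edgeR 4.0.16 (R 4.3.3): trimmed-mean scaling, 1 quasi-likelihood fit of 11 libraries with a mean per group, and p-values adjusted by Benjamini-Hochberg, called under 0.05. Each SE was derived from F as the size of the log2 fold change over its root. The replicate pairs of a group differed by 2.11 or more chi-square per degree of freedom, so none was taken as a repeat deposit. The pairs that include scramble replicate 2 were at 15.3 and 13.8, and the highest of the other pairs was at 3.87. Same-numbered libraries had correlations of -0.17 to 0.15 and were not treated as pairs. Alternatives were DESeq2 1.42.0, limma-voom (limma 3.58.1), other scalings and filters, a trend over transcript length (loess span 0.3) and each library left out. The test was checked on simulated data in which each gene had the same spread in every library and no length trend. That check does not cover a library like scramble replicate 2.

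The members and lists were chosen with earlier results of these data known. All members are counted, but 1 is not reported here and several others are not named. Full values are given for the 2 of each role group with the smallest adjusted p per knockdown. Members called between knockdowns or against their group also have full values. Of the other lists, values are given for the 2 members with the smallest adjusted p in each knockdown, except Uqcrfs1, Uqcrc1 and mt-Nd2.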

Additional observations from a re-analysis of the deposited data

Results flagged for a closer look

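Of the 90 knockdown groups of 4 libraries checked, 6 had 1 library far from the other 3 for a member, where chance flags about 1 in 20. Ndufa10 was at 196 CPM in Mettl14 knockdown replicate 1, the others being at 202 to 203. Ndufa8 was at 98.9 CPM in Mettl14 knockdown replicate 2, with 103 to 104 in the others. Ndufv2 was at 118 CPM in Mettl14 knockdown replicate 3 and at 124 to 125 in the others. Ndufb9 was at 128 CPM in Mettl14 knockdown replicate 1, above the 120 to 121 of the others. Ndufb3 was at 110 CPM in Mettl3 knockdown replicate 1 and at 118 to 120 in the others, and Ndufb7 was at 97.8 CPM in Mettl3 knockdown replicate 3 with the others at 103. The scramble group has 3 libraries and was not checked in this way.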

How the results depend on the processing

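The counts of subunits and of Ndufaf factors called against scramble stayed within 1.5 times of those above under other scalings, DESeq2, limma-voom, no filter, unrounded counts, fits of only the groups compared and the length trend, except that 1 assembly factor rose in Mettl14 knockdown with the length trend and scramble replicate 2 left out, an alternative chosen after seeing the data. Leaving out each library, 13 to 23 subunits rose in Mettl3 knockdown and 12 to 21 in Mettl14 knockdown. Between the knockdowns, subunits called lower numbered 3 with limma-voom or no filter, 6 in a fit of only these groups or with the length trend without scramble replicate 2, and 1 to 5 with a library left out; assembly factors called higher numbered 2 with library totals, limma-voom, only these groups or the length trend without scramble replicate 2, 0 with DESeq2, and 0 to 2 with a library left out. With the replicate number as a block, 16 and 18 subunits rose, and 2 of the other assembly factors in each knockdown and 1 regulator fell in Mettl3 knockdown were called; same-numbered libraries did not deviate together. With only the groups compared, Mettl3 knockdown had 2 other assembly factors higher, 1 regulator higher and 1 lower, and Mettl14 knockdown 0 mitochondrial genes, against 2 with no filter. DESeq2 called 1 regulator higher in Mettl3 knockdown, and the length trend without scramble replicate 2 called 5 in Mettl14 knockdown. With a library left out, Mettl3 knockdown had 2 to 4 other assembly factors higher, 0 to 1 mitochondrial genes, 1 to 3 regulators higher and 1 to 3 lower, and 0 to 1 genes of complexes II to V lower, and Mettl14 knockdown 2 to 5 regulators higher. None of the 53 called member values changed sign. Of values not called, Ndufa10 in Mettl3 knockdown ran from -0.0425 to 0.0136 with a library left out, positive without scramble replicate 2 (0.0039) or Mettl3 knockdown replicate 3. Ndufab1 there ran from -0.0048 without scramble replicate 2 to 0.0693, and was -0.0279 with the length trend as well. The cause was not tested. With 3 scramble libraries, the spread of that group rests largely on replicate 2.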
